A study of Homo sapiens with 16 samples.

Results

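The genes described here encode replacement and variant histones, the histones whose genes lie outside the replication-dependent histone clusters. The 10 genes were taken by name from the 57500 genes of the deposited tables: the H2A variants H2AFX, H2AFZ, H2AFV, H2AFY, H2AFY2 and H2AFJ, the H3.3 genes H3F3A and H3F3B, and the linker histone genes H1F0 and H1FX. RNA was sequenced from HEK293T cells, a human embryonic kidney line with the large T antigen of SV40. All cells had received a lentiviral vector, either for H2A or for H2A(E92K), a form in which 1 residue of the acidic patch of H2A is replaced. The 4 groups of 4 libraries were H2A cells with DMSO, E92K cells with DMSO, H2A cells with JQ1 at 1 µM for 3 h, and H2A cells with pinometostat at 2.5 µM for 24 h. JQ1 displaces BET bromodomain proteins from acetylated histones, and pinometostat inhibits DOT1L, the histone H3 lysine 79 methyltransferase. No time is given for DMSO, and the same 4 H2A libraries with DMSO are the controls of all comparisons, so compound, exposure time and handling cannot be told apart. Nothing in the labels says that replicates were separate cultures, so the p-values measure the spread between these libraries, which may be technical. The promoter of the vector and the number of clones are not given, and cells without a vector were not analysed here.

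Canonical histones are made in S phase from clustered genes whose messages end in a stem-loop, while most variant histones are made throughout the cell cycle from polyadenylated messages. H3.3 is laid down by HIRA at active genes and by DAXX and ATRX at silent repeats. H2A.Z is exchanged into nucleosomes at promoters by the SRCAP and TIP60/p400 complexes, H2A.X is phosphorylated next to DNA breaks, and macroH2A is known from silent chromatin. H1.0 and H1X are linker histones, which bind the nucleosome where DNA enters and leaves.

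The 16 libraries held between 17779692 and 27599686 counts each. Mitochondrial genes took 16.5% of the counts in JQ1 replicate 1 and 7.45% in E92K replicate 4, against 3.04% to 5.04% in the other 14 libraries. Values without these libraries are given beside the main results. Of 10 markers of HEK293T and embryonic kidney, 9 had a median of at least 1 TPM, and TUBB3 had 0.798. The summed level of these 10 markers ran from 306 to 368 TPM with pinometostat and from 401 to 587 in the other 3 groups. Of 13 markers of other cell types 5 had a median of at least 1 TPM, led by the fibroblast collagen COL1A1 at 58.0, while HBB was at 0 in all 16 libraries, and PTPRC, CD3E and PECAM1 were at 0 in 11 each. Their summed level was 81.3 to 103 TPM with DMSO, 51.3 to 88.2 in E92K cells, 76.5 to 97.7 with JQ1 and 49.5 to 82.6 with pinometostat, and the part of either list in the results was not tested. HEXIM1, a gene that BET inhibitors are known to raise, had 140.0 ± 49.0 CPM against 33.0 ± 4.59 (mean ± SD, n = 4) in JQ1 and DMSO libraries, a log2 fold change of 2.08 ± 0.18 (SE, adjusted p = 4.30e-07, edgeR). DOT1L, whose protein is the target of pinometostat, had 71.4 ± 10.9 CPM against 86.3 ± 18.3 (mean ± SD, n = 4) with pinometostat and with DMSO, adjusted p = 0.274 in the same fit.

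In H2A cells with DMSO the order of the 10 messages was led by the H2A.Z gene H2AFZ and closed by H2AFJ. Levels between genes were compared as TPM, a share of the library's transcripts in which each count is divided by the exonic length of the gene. H2AFZ, the main H2A.Z gene, had 1293, 1446, 1449 and 1429 TPM in the 4 libraries, a mean of 1404 ± 74.5 (SD, n = 4), and ranked 92 of 57015 genes with a symbol. The linker histone genes followed, with H1FX at 582 ± 39.9 and H1F0 at 452 ± 58.2 TPM. H2AFX had 337 ± 29.6 TPM and H3F3A 332 ± 17.6, and the libraries of these 2 genes overlapped. H3F3B, the other gene of the identical H3.3 protein, had 271 ± 11.8 TPM and lay below all 4 values of H3F3A. The macroH2A gene H2AFY2 had 153 ± 11.4 TPM, above H2AFV, the second H2A.Z gene, at 112 ± 5.53. H2AFY, the other macroH2A gene, had 51.2 ± 0.819 TPM and H2AFJ 25.2 ± 0.325, rank 5106. H2AFX and H3F3A were the only neighbours in this order whose 4 values overlapped. H2AFY has 17730 exonic bases in the files, the longest sum of exons among the 10, so its TPM is the most lowered for a given count.

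**Figure D1:**
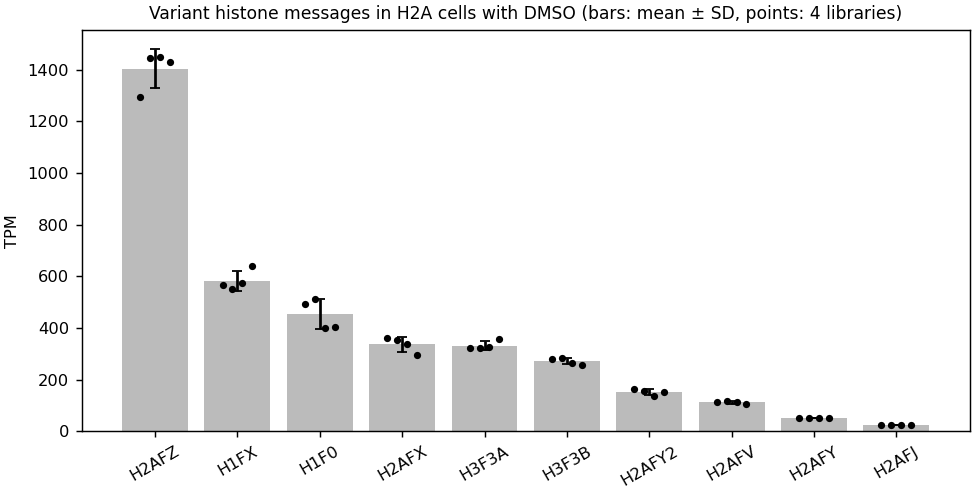
Level of the 10 variant histone genes in H2A cells with DMSO, in TPM; bars show the mean, whiskers the SD and points the 4 libraries. H2AFZ lies between 1293 and 1449 TPM, and H2AFJ between 24.8 and 25.6.

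H2AFZ made up 37.7% ± 1.78 (SD, n = 4) of the summed TPM of the 10 genes in DMSO libraries, H1FX 15.7% and H1F0 12.2%. The sum itself was 3720 ± 66.4 TPM (SD, n = 4) with DMSO and 3266 ± 80.3 with pinometostat, where it decreased by 12.2% with no overlap between the 8 libraries (exact permutation test, two-sided, p = 0.0286, the smallest that 4 against 4 can give). With JQ1 the sum was 4273 ± 759 TPM (SD, n = 4), and 3 of 4 libraries lay at 4603 to 4727, above all DMSO libraries, while replicate 1 lay at 3137 (exact permutation p = 0.143). Without that replicate the JQ1 mean exceeded that of DMSO by 931 TPM (exact permutation p = 0.0286). Counted over nuclear genes alone, that library had 5600.1 TPM, and the JQ1 mean was 5426 ± 138 against 4381 ± 62.7 (SD, n = 4 each, exact permutation p = 0.0286). The pinometostat mean on that scale was 3960 ± 84.7 TPM (SD, n = 4), a difference of −9.60% from DMSO (exact permutation p = 0.0286). The median log2 fold change of all genes with pinometostat was −0.086 in limma on log2(TPM + 1), where mitochondrial genes enter the total. That median is on the scale of the decrease of 12.2%, not on that of nuclear genes alone. In E92K cells the sum was 3559 ± 202 TPM (SD, n = 4), and it overlapped the DMSO libraries of H2A cells (exact permutation p = 0.257). Over nuclear genes alone it was 4378 ± 92.3 TPM (SD, n = 4, exact permutation p = 0.971).

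H2AFX lies on chromosome 11 of GRCh38, bases 119093854 to 119095467 on the minus strand (ENSG00000188486), and H3F3B on chromosome 17, bases 75776434 to 75785893, also on the minus strand (ENSG00000132475). Their promoters are shown because these 2 genes had the lowest adjusted p with JQ1, and that of H2AFZ (chromosome 4, bases 99948086 to 99950388, minus strand, ENSG00000164032) because it holds the same motifs and its level did not pass the test. Each run is the 250 bases before the RefSeq start (GRCh38.p14), written 5′ to 3′ on the gene's strand, with capitals for CCAAT in either orientation (ATTGG on the other strand) and for TATAAA. The run of H3F3B lies inside the span of that gene in the files. Part of the H2AFZ run, with its TATAAA and the CCAAT nearest the start, also lies inside the span of its gene. The run of H2AFX reaches into its gene by its last bases only.
H2AFX, chr11:119095466-119095715, minus strand: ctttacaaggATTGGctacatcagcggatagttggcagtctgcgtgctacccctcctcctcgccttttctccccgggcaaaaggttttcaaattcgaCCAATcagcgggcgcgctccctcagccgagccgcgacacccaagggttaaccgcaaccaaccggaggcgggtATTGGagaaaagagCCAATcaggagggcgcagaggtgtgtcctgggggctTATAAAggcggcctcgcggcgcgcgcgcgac
H3F3B, chr17:75779780-75780029, minus strand: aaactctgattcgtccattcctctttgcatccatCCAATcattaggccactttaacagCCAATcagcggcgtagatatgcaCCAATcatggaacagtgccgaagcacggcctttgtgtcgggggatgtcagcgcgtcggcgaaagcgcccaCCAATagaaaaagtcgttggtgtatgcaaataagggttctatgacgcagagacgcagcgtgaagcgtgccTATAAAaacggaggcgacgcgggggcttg
H2AFZ, chr4:99950276-99950525, minus strand: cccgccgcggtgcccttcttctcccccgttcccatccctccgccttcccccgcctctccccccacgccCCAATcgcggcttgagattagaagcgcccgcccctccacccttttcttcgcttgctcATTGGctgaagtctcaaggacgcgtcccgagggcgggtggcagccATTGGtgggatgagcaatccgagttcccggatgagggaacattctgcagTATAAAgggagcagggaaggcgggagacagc

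Motifs were searched on both strands in windows from 250 bases before to 50 after the start, which RefSeq gives for 9 of the 10 genes. H1F0 had no window. H2AFX held CCAAT 4 times, starting at −240, −153, −81 and −67 relative to the start, and TATAAA once, at −31. H3F3B also held 4 copies of CCAAT, at −216, −192, −169 and −99, and a TATAAA at −29. H2AFZ had 3 copies of CCAAT and a TATAAA, H2AFV 4 and H2AFJ 3 copies of CCAAT without TATAAA, and H1FX a TATAAA alone. Of 35116 promoter windows in the table, 34.6% held CCAAT at least once, 0.991% at least 4 times, and 11.5% held TATAAA. At least 2 copies of CCAAT together with TATAAA stood in 1.33% of all windows, and among the 10 genes in those of H2AFX, H3F3B and H2AFZ. TGACGTCA, CACGTG and TTTCGCGC, which stood in 1.85%, 7.26% and 0.515% of all windows, were found in no window of the 9 genes. A match describes the letters and shows no binding. H3F3A held at most 1 CCAAT in each of its 4 windows.

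H2AFX is a variant whose message is known in a short form that ends at a histone stem-loop and a longer polyadenylated form, and the stem-loop is shown because it sets this gene apart in sequence from the other 9. The capitals mark the 2 arms of the stem, of 6 bases each, and the loop of 4 bases between them, which starts with TTT after a T that closes the first arm. They are shown beside 2 canonical H2A genes, from the GENCODE 29 transcripts.
H2AFX: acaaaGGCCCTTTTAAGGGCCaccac
HIST1H2AC: ccaaaGGCTCTTTTCAGAGCCcccct
HIST3H2A: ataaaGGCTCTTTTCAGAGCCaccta

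In transcript H2AFX-201 the element spans bases 537 to 552 of 1373, and in H2AFX-202 bases 555 to 570 of 1614. A perfect stem of 6 base pairs that opens with GG and has its first arm end in T, around such a loop, was found in 43 of 57133 annotated genes (0.0753%), among them 31 of 90 genes named HIST (34.4%). H2AFX was the only one of the 10 with it. The deposited counts do not separate the 2 forms, and the library selection is not given in the sources used here.

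With JQ1, 6 of the 10 variant histone genes rose and none fell in edgeR's quasi-likelihood test (Benjamini-Hochberg over 17306 genes, threshold 0.05). Of all genes tested 17.6% were called in this comparison, 7.16% higher and 10.4% lower. H2AFX rose most, then H1FX, H3F3B, H3F3A, H1F0 and H2AFV. H2AFZ, H2AFY, H2AFY2 and H2AFJ did not pass. With library size alone or the 8 libraries of the 2 groups alone 3 of the 10 were called, and 2 with limma on TPM. The fit of 8 libraries called 1872 of 16385 genes, 505 of them higher. The groups did not overlap for 7 of the 10 genes, beside 20.5% of all genes, and the median log2 fold change was 0.47 for the 10 and 0.04 for all genes. Scaling moved the split over all genes, from 1239 of 3044 calls higher to 433 of 3038 with library size alone and 209 of 2383 with limma on TPM. In bulk RNA, a change in the share of cells that express a gene and a change in RNA per cell cannot be told apart.

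**Figure D2:**
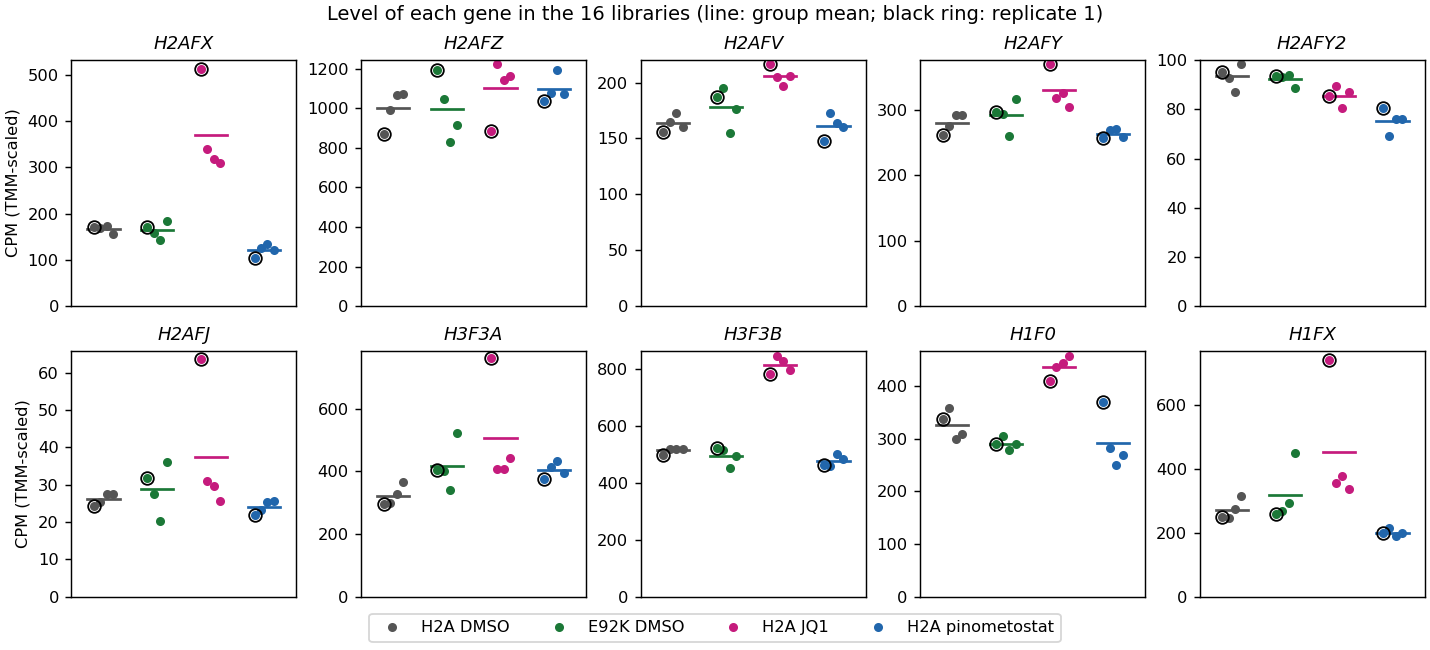
Level of each gene in CPM after TMM scaling, in the 16 libraries; the line is the group mean and the ring marks replicate 1. With JQ1 all 4 libraries of H2AFX (309.6 to 511 CPM) and H3F3B (781 to 843) lie above the other 12.

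H2AFX, which encodes the H2A variant phosphorylated at DNA breaks, had 171, 169, 174 and 155 CPM in the 4 DMSO libraries of H2A cells and 511, 339, 317 and 309.6 with JQ1. CPM is a gene's share of the counts after TMM scaling, not divided by length. All 4 JQ1 libraries were above the other 12, and replicate 1 was the highest. The difference was 2.21-fold, log2 1.14 ± 0.14 (SE, adjusted p = 2.53e-05, edgeR), and 0.91 without JQ1 replicate 1 (adjusted p = 1.05e-06). H2AFX passed the test in all 28 alternative settings that were tried.

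H3F3B encodes H3.3, the replacement form of H3. It had 498, 519, 519 and 517 CPM with DMSO and 781, 843, 826 and 793 with JQ1, and here replicate 1 of JQ1 was the lowest of its group. The fold change was 1.58, log2 0.66 ± 0.09 (SE, adjusted p = 3.38e-05, edgeR), and 0.65 without replicate 1. With limma on log2(TPM + 1) it was 0.36 and missed the threshold (adjusted p = 0.18), a scale on which the median of all genes moved to −0.21. In the annotation H3F3B shares 214 exonic bases with UNK on the other strand, a gene with a mean of 1297 counts against 12887 for H3F3B, and reads of the pair cannot be told apart there, as the strand setting is not given.

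H3F3A (chromosome 1, bases 226061851 to 226072001, plus strand, ENSG00000163041) encodes the same H3.3 protein. It had 297, 301, 327 and 367 CPM with DMSO and 762, 408, 409 and 444 with JQ1. On this scale no JQ1 library lay within the DMSO range, and replicate 1 stood far above the other 3. The log2 fold change was 0.65 ± 0.18 (SE, adjusted p = 0.0168, edgeR), and 0.35 without replicate 1 (adjusted p = 0.0356). With the 8 libraries of the 2 groups alone it was 0.62 and missed the threshold (adjusted p = 0.0804). H3F3A has 6 near-identical processed pseudogenes in the files, which took 11.4% to 18.4% of the summed counts of gene and copies, so its counts are uncertain. Summed with the copies, it still passed (adjusted p = 0.0233).

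H1F0 (chromosome 22, bases 37805093 to 37807436, plus strand, 1 exon, ENSG00000189060) encodes H1.0, a linker histone known from cells that slow or stop dividing. It had 337, 358, 300.1 and 309 CPM with DMSO and 410.5, 436, 444 and 457 with JQ1. The 4 JQ1 libraries lay above all DMSO libraries, replicate 1 lowest among them. The log2 fold change was 0.42 ± 0.11 (SE, adjusted p = 0.0144, edgeR), and 0.42 without replicate 1. The call was lost in 5 of 28 alternative settings, among them library size as the sole scaling (0.24, adjusted p = 0.266) and the fit without H2A DMSO replicate 3 (0.38, adjusted p = 0.0549).

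H1FX (chromosome 3, bases 129314771 to 129316277, minus strand, 1 exon, ENSG00000184897) encodes the linker histone H1X. It had 249.7, 247, 276 and 315 CPM with DMSO and 744, 356, 379.8 and 337 with JQ1. Replicate 1 of JQ1 stood far above the other 3, which lay above all DMSO libraries. The log2 fold change of 0.74 ± 0.22 (SE, adjusted p = 0.0249, edgeR) dropped to 0.37 without that library and missed the threshold (adjusted p = 0.0771). The call was lost in 8 of 28 alternative settings, also without H2A DMSO replicate 1, 2 or 3 (adjusted p = 0.0656, 0.071 and 0.0562). The antisense gene H1FX-AS1 shares 345 bases, 22.9% of H1FX, and had a mean of 69.4 counts against 6847.

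H2AFV (chromosome 7, bases 44826791 to 44848083, minus strand, ENSG00000105968) encodes the second H2A.Z protein. It had 156, 165, 173 and 161 CPM with DMSO and 217, 205, 197 and 206 with JQ1, with no overlap. The log2 fold change was 0.33 ± 0.09 (SE, adjusted p = 0.0187, edgeR) and 0.28 without replicate 1 (adjusted p = 0.0347). The call was lost in 6 of 28 alternative settings, with library size alone at 0.15 (adjusted p = 0.336). H2AFZ, its paralog, had 869.9, 992, 1067 and 1073 CPM with DMSO and 886, 1223, 1140.4 and 1161 with JQ1, and these ranges overlapped (log2 0.14 ± 0.13 SE, 95% interval -0.13 to 0.41, adjusted p = 0.498, edgeR). With limma on log2(TPM + 1) its log2 fold change was -0.16, of the other sign. The median of all genes on that scale was −0.21, and H2AFZ lay 0.047 above it.

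The macroH2A genes and H2AFJ did not pass with JQ1. H2AFY (chromosome 5, bases 135333900 to 135399914, minus strand, ENSG00000113648) had 261, 275, 292 and 292 CPM with DMSO and 370.0, 318, 326 and 304 with JQ1, which did not overlap (log2 0.23 ± 0.09 SE, adjusted p = 0.0934, edgeR). It passed in DESeq2 (0.24, adjusted p = 0.0312), but with limma on log2(TPM + 1) the sign turned, to -0.06. The median of all genes on that scale was −0.21, and H2AFY lay 0.15 above it. H2AFY2 (chromosome 10, bases 70052796 to 70112280, plus strand, ENSG00000099284) had a log2 fold change of -0.13 ± 0.08 (SE, adjusted p = 0.331, edgeR), the only negative one of the 10. H2AFJ (chromosome 12, bases 14774383 to 14778002, plus strand, ENSG00000246705), an H2A variant close to the canonical form, had 63.7, 30.9, 29.6 and 25.7 CPM with JQ1 against 24.3, 25.3, 27.4 and 27.4 with DMSO. Its log2 fold change of 0.51 ± 0.22 (SE, adjusted p = 0.125, edgeR) was 0.11 without replicate 1.

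On the CPM scale 6 of the 10 genes, H2AFX, H2AFJ, H3F3A, H1FX, H2AFY and H2AFV, had their highest JQ1 value in replicate 1, in which 16.5% of the counts were mitochondrial. H2AFX, H2AFJ, H3F3A, H1FX and H2AFY were also highest within the E92K group in replicate 4, with 7.45% mitochondrial counts. The place of JQ1 replicate 1 turned with the scale. As TPM it was the lowest JQ1 library for 7 of the 10 genes and the highest for 2, H2AFJ and H1FX. H2AFX had 532, 625, 603 and 606 TPM with JQ1, all above the DMSO libraries, and H3F3B 214, 409, 413 and 408 TPM, of which replicate 1 lay below all DMSO libraries. H3F3A had 407, 386, 399 and 446 TPM there, with replicate 1 inside the range of the others. The part of these libraries in the single values was not tested beyond leaving them out. Without JQ1 replicate 1, 5 of the 10 genes rose, and without both libraries 6 did, H1FX among them. Of all genes, 1108 of 17590 and 1780 of 17446 were called higher in these 2 fits.

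**Figure D3:**
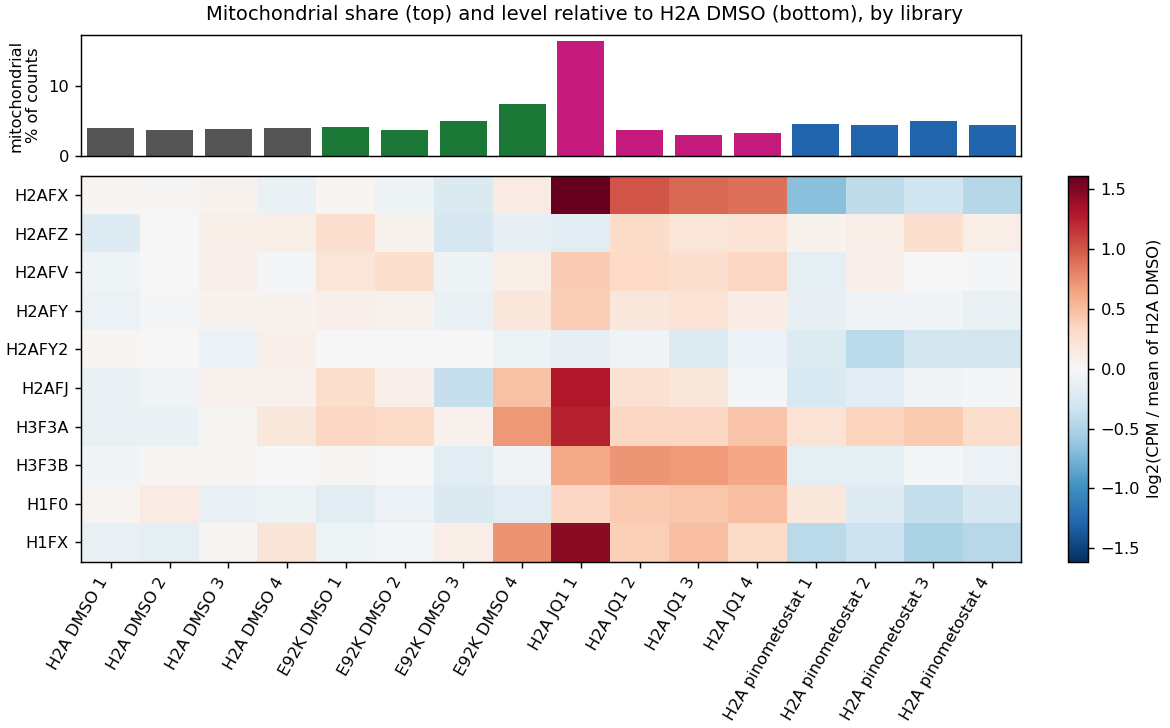
Top, share of mitochondrial counts in each library in percent; bottom, log2 of the CPM of each gene over its mean in H2A cells with DMSO, in the same order of libraries. H2AFX and H3F3B are high in all 4 JQ1 libraries, while H2AFJ, H3F3A and H1FX stand out in the library with 16.5% mitochondrial counts.

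With pinometostat 1 of the 10 genes passed the test, H2AFY2, which was lower (edgeR, adjusted p below 0.05); 8.2% of all genes were called, 3.62% higher and 4.58% lower. The groups did not overlap for 4 of the 10 genes, H2AFX, H1FX and H2AFY2 lower and H3F3A higher, beside 26.3% of all genes as a background; 1 called gene of 10 is close to the share over all genes. The median log2 fold change was −0.11 for the 10 and 0.03 for all genes. Over all genes, 626 of 1419 calls were higher, and 69 of 457 with limma on log2(TPM + 1), 395 of 1213 with library size alone and 774 of 1354 with upper quartile scaling.

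H2AFY2, a macroH2A gene, had 95.3, 92.7, 87.2 and 98.6 CPM with DMSO and 80.5, 69.1, 76.1 and 76.2 with pinometostat. Every treated library lay below every control. The log2 fold change was -0.31 ± 0.08 (SE, adjusted p = 0.0325, edgeR). The call was lost in 11 of 28 alternative settings, including leaving out any 1 pinometostat library or DMSO replicate 1, 2 or 4 (adjusted p between 0.0558 and 0.0989), and the direction held in all 28.

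H2AFX had 105, 126, 134 and 121 CPM with pinometostat, all below the 4 DMSO libraries, and a log2 fold change of -0.46 ± 0.14 (SE, adjusted p = 0.0542, edgeR). It passed in 14 of 28 alternative settings, among them without JQ1 replicate 1 (-0.52, adjusted p = 0.00106) and with mitochondrial genes left out (-0.51, adjusted p = 0.0296). JQ1 replicate 1 is in neither group of this comparison, but it enters the shared fit and its scaling. H1FX had 201, 215, 191 and 199 CPM with pinometostat, a log2 fold change of -0.43 ± 0.22 (SE, adjusted p = 0.222, edgeR), and passed without JQ1 replicate 1 (-0.48, adjusted p = 0.0136). H3F3A had 377, 415, 433 and 394 CPM, above all DMSO libraries, with a log2 fold change of 0.33 ± 0.18 (SE, adjusted p = 0.258, edgeR), and it passed with the 8 libraries of the 2 groups alone (0.31, adjusted p = 0.0153). In that fit and in the fit without JQ1 replicate 1 and E92K replicate 4, 4 of the 10 genes were called, H2AFX, H2AFY2, H1FX and H3F3A. Of all genes, 4610 of 16721 and 4782 of 17446 were called in these 2 fits.

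The other 6 genes overlapped between pinometostat and DMSO, with log2 fold changes from -0.15 to 0.13. H3F3B had 463, 459, 502 and 481 CPM with pinometostat (log2 -0.11 ± 0.09 SE, 95% interval -0.29 to 0.07, adjusted p = 0.458, edgeR). H2AFZ had 1038, 1077, 1194 and 1073 CPM (95% interval of the log2 fold change -0.14 to 0.40). H1F0 had 369, 283, 249.7 and 270.2 CPM, and here replicate 1 was above all DMSO libraries while the other 3 were below them.

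**Figure D4:**
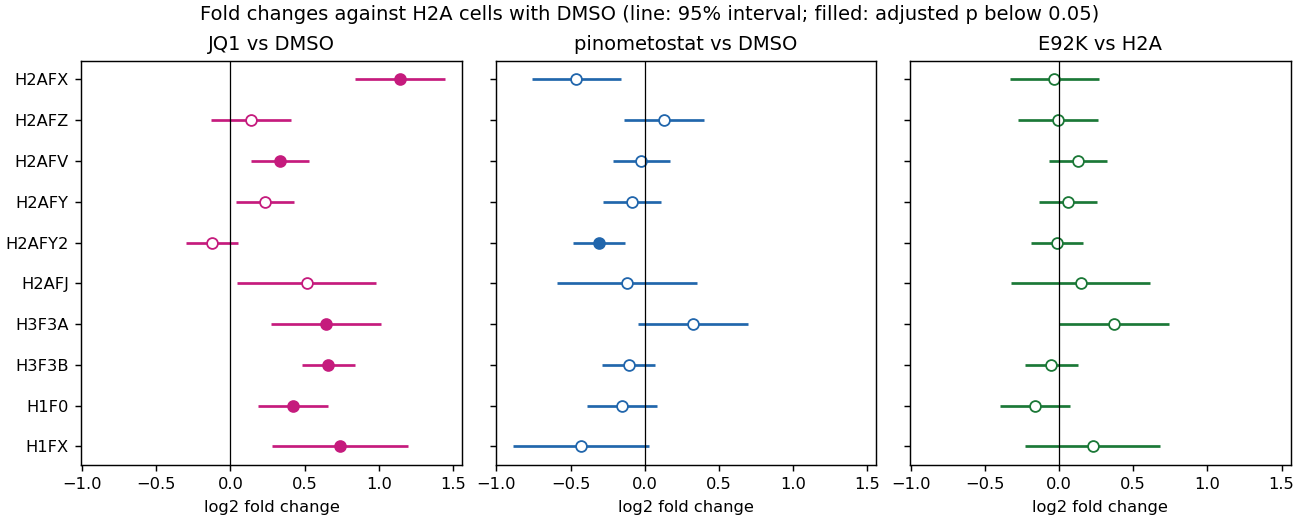
Log2 fold change of each gene against H2A cells with DMSO in the edgeR fit; lines are 95% intervals and filled points have an adjusted p below 0.05. Filled points number 6 with JQ1, all above 0, and 1 with pinometostat (H2AFY2, below 0), and none in E92K cells.

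In E92K cells none of the 10 genes passed the test, and none had an unadjusted p below 0.05 (edgeR). Of all 17306 genes 0% were called, while 1296 had an unadjusted p below 0.05 and DESeq2 called 4. On the CPM scale the groups overlapped for all 10 genes, beside 5.17% of all genes without overlap. As TPM, H3F3A did not overlap, at 358.6 to 428.1 in E92K cells against 321.0 to 358.3 in H2A cells. Its unadjusted p was 0.0506 (edgeR). The share of all genes without overlap was counted as CPM and not as TPM. With library size alone or limma on log2(TPM + 1), 1 of the 10 genes had an unadjusted p below 0.05. So had 1089 and 657 of all 17306 genes in these 2 settings. The largest difference among the 10 was that of H3F3A, with 406, 401, 340.2 and 522 CPM in E92K cells and a log2 fold change of 0.37 ± 0.18 (SE, adjusted p = 0.656, edgeR). Replicate 4 was the highest, and without it the value was 0.22. H1FX had 259.7, 269, 293 and 450.0 CPM, and its log2 fold change of 0.23 ± 0.22 (SE) was -0.01 without replicate 4. H2AFX had 171, 158, 142 and 184 CPM, around the level in H2A cells, with a 95% interval of -0.33 to 0.27 on the log2 scale. Counts of all 16 libraries were also simulated, with changes put into the E92K libraries. There the test found 26.9% of 1.5-fold and 74.6% of 2-fold changes, so smaller changes could have been missed. The changed genes were drawn at random from all genes tested, so these shares are not rates for the 10 genes.

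The groups were also compared directly in the same fit; doses and times of the compounds differ. Between JQ1 and pinometostat 7 of the 10 genes were called, all higher with JQ1, beside 34.2% of all genes (16.8% higher with JQ1). H2AFX had the largest difference, log2 1.60 ± 0.15 (SE, adjusted p = 7.23e-07, edgeR), followed by H1FX with 1.17 ± 0.22 and H3F3B with 0.77 ± 0.09. Without JQ1 replicate 1 these 3 values were 1.43, 0.85 and 0.81. H2AFJ, H1F0, H2AFV and H2AFY were the other 4, with differences of 0.63, 0.58, 0.36 and 0.32, of which H2AFJ dropped to 0.28 without that library (adjusted p = 0.11), missing the threshold, as it did with any 1 pinometostat library left out. The groups did not overlap for 6 of the 10 genes, beside 33.2% of all genes. Between JQ1 and E92K cells 3 of the 10 genes were called, H2AFX (log2 1.17 ± 0.14), H3F3B (0.71 ± 0.09) and H1F0 (0.59 ± 0.11), all higher with JQ1, beside 22.9% of all genes, and 4 of the 10 did not overlap, beside 20.1%. Between E92K and pinometostat none of the 10 was called, beside 0.352% of all genes, and 3 of the 10 did not overlap, beside 14.5%. With JQ1 replicate 1 and E92K replicate 4 left out, H1FX, H2AFX and H2AFY2 were called there, all 3 higher in E92K cells. That fit called 1566 of 17446 genes, 923 of them higher in E92K cells. The order of the group means of H2AFX was thus JQ1, DMSO, E92K and pinometostat, and in the fit with all 16 libraries only JQ1 differed from each of the others at an adjusted p below 0.05.

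Related genes were also compared within each library, as the log2 ratio of their TPM, which does not depend on library scaling. H3F3B to H3F3A, the 2 genes of one H3.3 protein, had log2 ratios of -0.22, -0.18, -0.30 and -0.47 with DMSO in H2A cells. With pinometostat the ratios were -0.67, -0.82, -0.75 and -0.67, and in E92K cells -0.60, -0.61, -0.56 and -1.04. Both groups lay below all DMSO libraries of H2A cells, by −0.44 and −0.41 on the mean. Each difference had an exact permutation p of 0.0286, the smallest 4 against 4 libraries can give, and 0.0857 after Benjamini-Hochberg adjustment over 15 tests. With JQ1 the ratios were -0.93, 0.08, 0.05 and -0.13, with 3 libraries above all DMSO libraries and replicate 1 below them (difference of means 0.06, exact permutation p = 0.886, n = 4 each). Leaving out JQ1 replicate 1 gave a difference of 0.29 (exact permutation p = 0.0286), and without E92K replicate 4 that of E92K cells was −0.30 (exact permutation p = 0.0571).

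The ratio of H2AFX to H2AFJ had a mean of 3.74 ± 0.13 (log2, SD, n = 4) with DMSO, 4.43 ± 0.25 with JQ1 and 3.39 ± 0.11 with pinometostat, without overlap in either comparison (exact permutation p = 0.0286 each, adjusted 0.0857). H2AFY2 to H2AFY, the macroH2A pair, had log2 ratios of 1.71, 1.59, 1.42 and 1.60 with DMSO and 1.05, 1.33, 1.15 and 1.36 with JQ1, again without overlap (difference −0.36, exact permutation p = 0.0286, adjusted 0.0857). H2AFV to H2AFZ had a mean of -3.65 ± 0.11 (log2, SD, n = 4) with DMSO, so that H2AFZ held most of the H2A.Z message, and overlapped DMSO in all 3 comparisons. H1FX to H1F0 overlapped DMSO in all 3 comparisons as well. No ratio passed after adjustment; with 4 libraries against 4, only more tests at the smallest p could have brought that about.

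**Figure D5:**
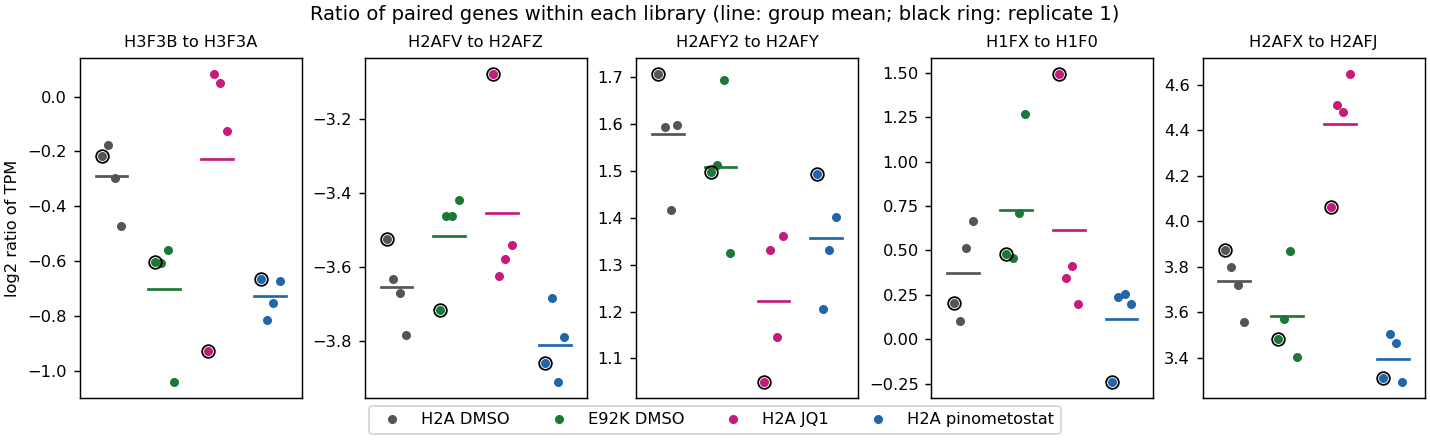
Log2 ratio of the TPM of paired genes within each library; lines are group means and the ring marks replicate 1. For H3F3B to H3F3A the pinometostat libraries (−0.82 to −0.67) and the E92K libraries (−1.04 to −0.56) lie below the DMSO libraries of H2A cells (−0.47 to −0.18).

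Of 8 factors that deposit H3.3, 3 rose with JQ1 and 1 fell, beside 7.16% of all genes higher and 10.4% lower, and the median log2 fold change was 0.44 against 0.04 for all genes. HIRA and UBN1, subunits of the HIRA complex, had log2 fold changes of 0.41 ± 0.12 and 0.51 ± 0.14 (SE, adjusted p = 0.0261 and 0.0193, edgeR). ASF1B, a chaperone that hands H3 and H4 on, had 112 ± 3.26 CPM against 80.7 ± 2.25 (mean ± SD, n = 4), log2 0.47 ± 0.08 (SE, adjusted p = 0.00039, edgeR). DAXX, the chaperone that works with ATRX, fell, with 81.0 ± 3.56 CPM against 109 ± 4.74 (mean ± SD, n = 4), log2 -0.42 ± 0.08 (SE, adjusted p = 0.00135, edgeR). Without JQ1 replicate 1 the counts were 2 higher and 1 lower, beside 3207 of 17590 genes called. With pinometostat 1 of the 8 changed, ASF1B, which fell to 60.2 ± 2.69 CPM against 80.7 ± 2.25 (mean ± SD, n = 4; log2 -0.42 ± 0.08 SE, adjusted p = 0.00764, edgeR), beside 8.2% of all genes called, and the median was −0.16 against 0.03. With JQ1 replicate 1 left out 2 of the 8 were called lower, beside 3701 of 17590 genes called, 1269 of them higher. With both libraries left out or the 8 libraries of the 2 groups alone 3 were called, 1 higher and 2 lower. Of all genes, 4782 of 17446 and 4610 of 16721 were called in those 2 fits.

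Of 17 factors that exchange H2A.Z, 2 rose and 3 fell with JQ1, beside 7.16% of all genes higher and 10.4% lower, and the median of 0.03 was close to that of all genes. With the 8 libraries of the 2 groups alone 1 of the 17 was called, beside 1872 of 16385 genes. ACTL6A, a subunit of the TIP60/p400 and other remodelling complexes, rose by 0.36 ± 0.11, and YEATS4, the reader subunit shared by the SRCAP and TIP60 complexes, had -0.57 ± 0.15 on the log2 scale (SE). RUVBL2, an ATPase of these complexes, rose (log2 0.46 ± 0.15 SE, adjusted p = 0.0383, edgeR), and KAT5, the TIP60 acetyltransferase, fell (log2 -0.29 ± 0.09 SE, adjusted p = 0.03). MRGBP was the third that fell. With pinometostat 1 rose and 4 fell, beside 3.62% and 4.58% of all genes. YEATS4 rose there, from 73.0 ± 11.9 to 105 ± 14.6 CPM (SD, n = 4; log2 0.52 ± 0.15 SE, adjusted p = 0.0413, edgeR). VPS72, an H2A.Z chaperone subunit, was 84.5 ± 1.87 CPM against 117 ± 3.72 (mean ± SD, n = 4; log2 -0.46 ± 0.11 SE, adjusted p = 0.0177, edgeR), and KAT5, MRGBP and ANP32E were the other 3 that fell. The adjusted p of ANP32E was 0.0495 (edgeR), just below the threshold.

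Of 15 further histone chaperones none passed with JQ1 (edgeR), and 4 fell with pinometostat, beside 4.58% of all genes lower, with a median of −0.25 against 0.03 for all genes. NCL, nucleolin, had 593 ± 47.3 CPM against 843 ± 112 (mean ± SD, n = 4), log2 -0.51 ± 0.14 (SE, adjusted p = 0.0386, edgeR). CHAF1A, the large subunit of the replication chaperone CAF-1, had a log2 fold change of -0.48 ± 0.13 (SE), SUPT16H of the FACT complex -0.44 ± 0.13 and ANP32B -0.36 ± 0.09. The adjusted p of SUPT16H was 0.0499 (edgeR), just below the threshold. Without JQ1 replicate 1, 7 of the 15 were called lower with pinometostat and 1 with JQ1. That fit called more of all genes with pinometostat, 3701 of 17590, 1269 of them higher. With JQ1 it called 3207, 1108 of them higher. Of 7 partners of H2A.X, RNF168 rose and RNF8 fell with JQ1, ubiquitin ligases of the DNA break response, with log2 fold changes of 0.58 ± 0.17 and -0.49 ± 0.11 (SE), which is 2 of 7 beside 17.6% of all genes called. ATM, a kinase of H2A.X, rose with pinometostat (log2 0.36 ± 0.09 SE, adjusted p = 0.0242, edgeR), 1 of 7 beside 8.2%. In the fit without JQ1 replicate 1, 2 of 7 were called, beside 3701 of 17590 genes. No gene of the 4 lists passed in E92K cells (edgeR).

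The genes whose log2 CPM followed H2AFX most closely over the 16 libraries, among 11498 genes with a mean of at least 5 CPM, were FAM234A (Pearson r = 0.988), SPATA2L (0.983), P3H1 (0.981), CDK9 (0.974) and KCTD13 (0.968). For H3F3B they were ID4 (0.978), SNX5 (0.966), NRBP1 (0.966), CDKN2D (0.964) and SQLE (0.955). Without JQ1 replicate 1 and E92K replicate 4 the 10 values lay between 0.956 and 0.981 over 14 libraries. These correlations are a description over libraries that share groups and scaling. H2AFX and H3F3B had an r of 0.925 with each other, and 0.959 over those 14 libraries. For H2AFX and H2AFZ the values were 0.04 and 0.397.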

How the data were processed

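Per the labels' protocols, HEK293T cells carrying the vectors were cultured in DMEM with serum, and a service provider made and sequenced the libraries. The aligner, counter, strand setting and genome build are not given. Gene starts and ends in the files matched GENCODE 29 (GRCh38) for 96.3% of 56898 shared identifiers and for all 10 members. Counts were deposited by the authors as whole numbers for each gene, and the series table equals the single files in 920000 of 920000 values. The deposited TPM values equal the counts divided by exonic length and scaled to 1 total per library, within 5e-05, so they carry no further correction. Mitochondrial genes enter that total, which lowers the TPM of nuclear genes in a library rich in them.

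Counts were tested with edgeR 4.0.16 (quasi-likelihood, two-sided, R 4.3.3) after TMM scaling and a filter (minimum count 10, total 15), which 17306 genes and all 10 members passed. All 16 libraries were fitted with 1 mean per group, so the groups share the spread, and p-values were adjusted over all genes tested (Benjamini-Hochberg, threshold 0.05). Ratios and sums of TPM were tested by exact permutation over all 70 assignments. Alternatives used DESeq2 1.42.0, limma 3.58.1 on log2(TPM + 1), other scalings and filters, and left out single libraries. Replicates differed beyond counting noise (chi-square per degree of freedom at least 3.54). The test was checked on simulated counts, where it found 73.1% of 2-fold changes for JQ1. The named genes were all 10 members, up to 4 called genes per factor list and comparison with the smallest adjusted p (RUVBL2 with JQ1 and ANP32E with pinometostat fall outside this and were named after their values were seen), and the 5 genes most correlated with H2AFX and with H3F3B. Members and lists were chosen with earlier results of these data known. The stem-loop search, the sum with pseudogenes and the fit without mitochondrial genes were added after seeing the data.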

Additional observations from a re-analysis of the deposited data

Results flagged for a closer look

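Values that stood apart within a group of 4 libraries were looked for in 64 groups (the 10 genes, 5 ratios and the summed TPM in 4 conditions), by whether the gap to the nearest library exceeded 0.829 of the group's range. Chance flags about 1 in 20 groups, and 12 of the 64 were found, 7 of them with JQ1 replicate 1, the library with 16.5% mitochondrial counts. In that library H2AFX was at 511 CPM, H2AFJ at 63.7, H3F3A at 762 and H1FX at 744, each above the other 3. Its log2 ratio of H2AFV to H2AFZ was −3.08 and that of H1FX to H1F0 was 1.495, both above the other 3 libraries, and its summed TPM of 3137 lay below the others at 4603 to 4727.

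In E92K cells the macroH2A gene H2AFY2 was at 88.7 CPM in replicate 4 against 93.4 to 93.9 in the others, and the log2 ratio of H3F3B to H3F3A was −1.04 there against −0.61 to −0.56. That library had 7.45% mitochondrial counts. E92K replicate 1 had a log2 ratio of H2AFV to H2AFZ of −3.72, below the other 3. Among H2A cells with DMSO, H3F3B was at 498 CPM in replicate 1 against 517 to 519. Pinometostat replicate 1 had a log2 ratio of H1FX to H1F0 of −0.24, below the other 3.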

How the results depend on the processing

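With the 8 libraries of 2 groups alone, genes called numbered 1872 with JQ1 and 4610 with pinometostat, and members called 3 and 4. Without JQ1 replicate 1 and E92K replicate 4 together, 4782 genes and 4 members were called with pinometostat and 3 genes in E92K cells. DESeq2 called 2348 genes and 2 members with pinometostat and 4 genes in E92K cells, and without a filter 4 genes were called there. Limma on log2(TPM + 1) and log2(TPM + 0.1) called 457 and 403 genes with pinometostat, 2 members with either compound, and 3 between JQ1 and pinometostat. Genes called were 2383 and 2352 with JQ1, and 3684 and 3608 between the compounds, in the same order. With library size alone 3 members were called with JQ1, 2 with pinometostat and 4 between the compounds, beside 3038, 1213 and 5555 genes. With DESeq2 size factors, a filter of 50 counts in 4 libraries, or mitochondrial genes left out, 2 members were called with pinometostat. Genes called numbered 1553, 1673 and 1703 in these 3 settings. Between E92K and pinometostat 1 member was called with 8 libraries, DESeq2 or no filter, and 3 without both libraries. Genes called there numbered 383, 862 and 306, and 1566 without both libraries. The cause of these shifts was not tested, apart from the fewer libraries in some fits.

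With single libraries left out, genes called ran from 283 to 3701 with pinometostat, 0 to 4 in E92K cells and 2216 to 3207 with JQ1. For pinometostat the count was 283, 782 and 676 without H2A DMSO replicate 1, 2 or 3, 447, 708, 690 and 718 without pinometostat replicate 1 to 4, and 3701 without JQ1 replicate 1. Members called ran from 4 to 7 with JQ1, 0 to 3 with pinometostat, 6 to 7 between the compounds and 0 to 3 between E92K and pinometostat. In that last comparison 3 were called without JQ1 replicate 1, where 1789 of 17590 genes were called. The summed TPM with JQ1 exceeded DMSO by 401 to 931, and by 1045 over nuclear genes. The JQ1 difference of the log2 ratio H3F3B to H3F3A ran from −0.043 to 0.29, and that of H1FX to H1F0 from −0.053 to 0.38 (−0.053 without both libraries).

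Several log2 fold changes that had not been called changed sign, that of H2AFY with JQ1 (0.23) among them. In E92K cells single libraries left out gave H1FX −0.0080 to 0.31, H2AFJ −0.0014 to 0.28, H2AFX −0.12 to 0.019, H2AFY −0.0066 to 0.10, H2AFY2 −0.050 to 0.0087 and H2AFZ −0.11 to 0.060. Without both libraries H2AFY2 was 0.0064 and H2AFZ 0.035, with upper quartile scaling H2AFZ was 0.0077, and with limma on log2(TPM + 1) and log2(TPM + 0.1) H2AFY was −0.057 and −0.058. With JQ1 the same 2 scales gave −0.063 and −0.065 for H2AFY and −0.16 for H2AFZ, which was −0.025 with library size alone. The median of all genes with JQ1 was −0.21 and −0.27 on these 2 scales and −0.14 with library size alone. With pinometostat H2AFV was 0.012 with upper quartile scaling and ran from −0.077 to 0.016 with single libraries left out, and H2AFZ was −0.0057 on both TPM scales. On log2(TPM + 1) the median of all genes was −0.086 with pinometostat and −0.093 in E92K cells.

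Whether the replicate numbers pair the libraries is not given. Deviations of same-numbered libraries correlated between −0.21 and 0.15, with 1 of 12 pairs above 0.1, which cannot show how the libraries were prepared. With the replicate block 2363 genes and 6 members were called with JQ1, 534 genes and 0 members with pinometostat, and 0 of either in E92K cells.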
